A study of Mus musculus with 8 samples.

Results

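The cell cycle and DNA replication genes described here are 36 genes picked by name and matched to the gene names of the deposited table, of 14133 genes in all. All 36 were in the table, and all 36 passed the filter on low counts that left 14006 genes for testing. They were separated into 16 G1/S replication genes, which act at the entry into S phase and in copying DNA, and 20 G2/M mitotic genes, which act from G2 through chromosome separation. The RNA came from CT26 tumours, grown from a mouse colon cancer cell line that had been injected under the skin of male BABL/C mice (spelled as in the labels), all with the genotype label WT. Control mice had PBS treatment. Propranolol mice received propranolol, a blocker of beta-adrenergic receptors, once daily into the peritoneum from a tumour volume of 70 to 100 mm3 onward. The labels number 4 tumours in each group, called control 1 to 4 and propranolol 1 to 4. The sources used here do not give the dose, the time of collection or the animals' age, and the design text speaks of duplicates where the titles number 4. No label ties a tumour to its own animal, so the p-values cover the spread among these tumours, which may be partly technical.

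A dividing cell copies its DNA once per cycle and then splits it between the daughters. At the G1/S boundary the transcription factor E2F, freed from the retinoblastoma protein by cyclin-dependent kinases, turns on the genes that license origins, unwind DNA and supply nucleotides. Later in the cycle the MuvB complex with B-MYB and FOXM1 acts through a promoter element called CHR (cell cycle genes homology region) to turn on the mitotic genes, and the factor NF-Y binds CCAAT boxes beside it. In tumour tissue these transcripts are read as a measure of how many cells are cycling. In bulk RNA, fewer cycling cells and less RNA per cycling cell cannot be told apart.

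Promoters of the members are shown because their letters differ between the G1/S and the G2/M genes, a feature that the choice of genes did not use. RefSeq promoter windows of 300 bases (250 before to 50 after the start site, build GRCm38.p6) were matched by symbol for 28 of the 36 members. Mcm4, Gins2, Ccne2, Ccna2, Aurkb, Foxm1, Kif20a and Tpx2 had no entry. Only the start sites of these windows were searched, so a gene without a match may hold one at another start. Set against members on the same chromosome, the windows of at least E2f1 and Cdc6 appear to lie inside the gene. The sequence upstream of these 2 genes was then not searched. Shares below are over genes, and a gene with several windows counts as holding a motif found in any of them. This applies to 2161 genes of the deposited table and, among the members, to Mcm7, whose 2 windows differ: the E2F-like and CHR matches lie in the same window and the other holds neither. Both strands were searched for an E2F-like motif in any of 4 spellings (TTTCCCGC or TTTGGCGC or TTTCGCGC or TTTGCCGC), for CHR in its spellings TTTGAA or TTCGAA, and for CCAAT. In the windows below, lower case is the promoter 5′ to 3′ on the strand of the gene and capitals mark every match, on either strand; capitals that run on are overlapping matches.
Mcm6, chr1:128359656-128359955, minus strand: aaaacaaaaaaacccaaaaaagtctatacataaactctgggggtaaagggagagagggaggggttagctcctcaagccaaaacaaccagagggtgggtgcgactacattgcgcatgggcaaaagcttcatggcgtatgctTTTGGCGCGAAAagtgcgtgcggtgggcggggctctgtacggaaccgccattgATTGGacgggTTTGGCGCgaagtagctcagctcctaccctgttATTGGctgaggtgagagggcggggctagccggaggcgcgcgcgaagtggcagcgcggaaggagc
Cdc6, chr11:98907901-98908200, plus strand: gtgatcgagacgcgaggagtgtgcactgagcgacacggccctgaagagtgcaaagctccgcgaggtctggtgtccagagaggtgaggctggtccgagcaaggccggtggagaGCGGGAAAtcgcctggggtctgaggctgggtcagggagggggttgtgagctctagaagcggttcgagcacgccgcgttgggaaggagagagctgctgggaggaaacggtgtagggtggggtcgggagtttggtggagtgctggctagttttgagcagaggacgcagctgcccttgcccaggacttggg
Rrm2, chr12:24708004-24708303, plus strand: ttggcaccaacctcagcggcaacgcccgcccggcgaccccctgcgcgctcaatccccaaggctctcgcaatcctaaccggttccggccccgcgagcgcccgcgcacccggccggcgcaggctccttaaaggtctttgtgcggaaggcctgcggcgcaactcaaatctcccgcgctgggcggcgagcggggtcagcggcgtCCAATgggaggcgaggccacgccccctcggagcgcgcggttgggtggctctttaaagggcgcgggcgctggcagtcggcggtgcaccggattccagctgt
Cdk1, chr10:69352863-69353162, minus strand: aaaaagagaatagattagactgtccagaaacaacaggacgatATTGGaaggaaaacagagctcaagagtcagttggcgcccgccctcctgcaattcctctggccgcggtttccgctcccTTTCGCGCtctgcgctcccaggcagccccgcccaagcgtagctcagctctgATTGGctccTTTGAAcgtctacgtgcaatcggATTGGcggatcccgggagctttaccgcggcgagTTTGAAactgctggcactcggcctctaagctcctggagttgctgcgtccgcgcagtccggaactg
Kif11, chr19:37376132-37376431, plus strand: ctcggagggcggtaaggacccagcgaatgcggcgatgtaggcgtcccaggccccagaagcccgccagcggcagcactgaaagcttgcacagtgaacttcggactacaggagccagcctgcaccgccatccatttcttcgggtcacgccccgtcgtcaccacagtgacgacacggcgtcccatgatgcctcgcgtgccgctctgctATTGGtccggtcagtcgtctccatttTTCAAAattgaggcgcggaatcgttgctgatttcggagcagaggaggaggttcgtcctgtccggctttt
Cdc20, chr4:118437294-118437593, minus strand: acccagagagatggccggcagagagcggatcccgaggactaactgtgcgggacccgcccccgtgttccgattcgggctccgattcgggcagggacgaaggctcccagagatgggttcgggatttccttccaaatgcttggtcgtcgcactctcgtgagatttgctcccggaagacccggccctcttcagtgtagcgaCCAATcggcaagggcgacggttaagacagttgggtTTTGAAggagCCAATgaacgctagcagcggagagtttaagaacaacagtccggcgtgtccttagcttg
Mki67, chr7:135716330-135716629, minus strand: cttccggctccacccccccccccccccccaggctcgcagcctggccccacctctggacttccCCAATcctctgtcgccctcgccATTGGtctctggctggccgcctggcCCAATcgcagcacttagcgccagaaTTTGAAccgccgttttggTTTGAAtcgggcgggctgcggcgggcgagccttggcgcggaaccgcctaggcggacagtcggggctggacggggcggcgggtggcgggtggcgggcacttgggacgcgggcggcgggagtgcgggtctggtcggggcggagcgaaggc

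Mcm6 stands for the G1/S genes with an E2F-like match. The Cdc6 window holds one too, but it appears to lie inside the gene, so this match may not belong to the promoter. Rrm2 had the largest fitted decrease of all 36 genes, and its window holds a single CCAAT, beginning 50 bases before the start site, and neither of the other motifs. Cdk1 was the only G2/M member with an E2F-like match, 131 bases before the start, in addition to CHR matches at 71 and 15 bases before it. Kif11 and Cdc20 hold CHR 19 and 18 bases before the start, close to a CCAAT on either strand. Mki67, which with Top2a was a mitotic member without a lower fitted level, holds 2 CHR matches.

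An E2F-like match was present in 6 of 13 G1/S genes (46.2%) and in 1 of 15 G2/M genes (6.67%), against 4.50% of the 10651 genes of the deposited table that have a window. The 6 genes were Mcm3, Mcm5, Mcm6, Mcm7, Cdc6 and Cdt1, of which 4 encode subunits of the MCM helicase. Cdc6 is counted here and in the fold changes below, although its window appears to lie inside the gene. CHR showed the opposite pattern, with 12 of 15 G2/M genes (80.0%), 2 of 13 G1/S genes (15.4%) and 16.8% of the genes of the table. The 3 G2/M genes without it were Birc5, Ccnb1 and Cenpe. CCAAT was in 14 of 15 G2/M genes (93.3%), in 8 of 13 G1/S genes (61.5%) and in 42.7% of the genes of the table. Of the 19 CHR matches in G2/M windows, 11 began within 50 bases of the start site. Among other genes of these functions, E2F-like matches were in 11 of 35 replication genes and 5 of 54 mitotic genes, and CHR in 7 of 35 and 40 of 54. In the treatment comparison, the 6 G1/S genes with an E2F-like match had a median log2 fold change of -0.15. The 7 without a match in the window, E2f1 among them, also had one of -0.15. The G2/M medians were -0.13 for the 12 genes with CHR and -0.083 for the 3 without.

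**Figure D1:**
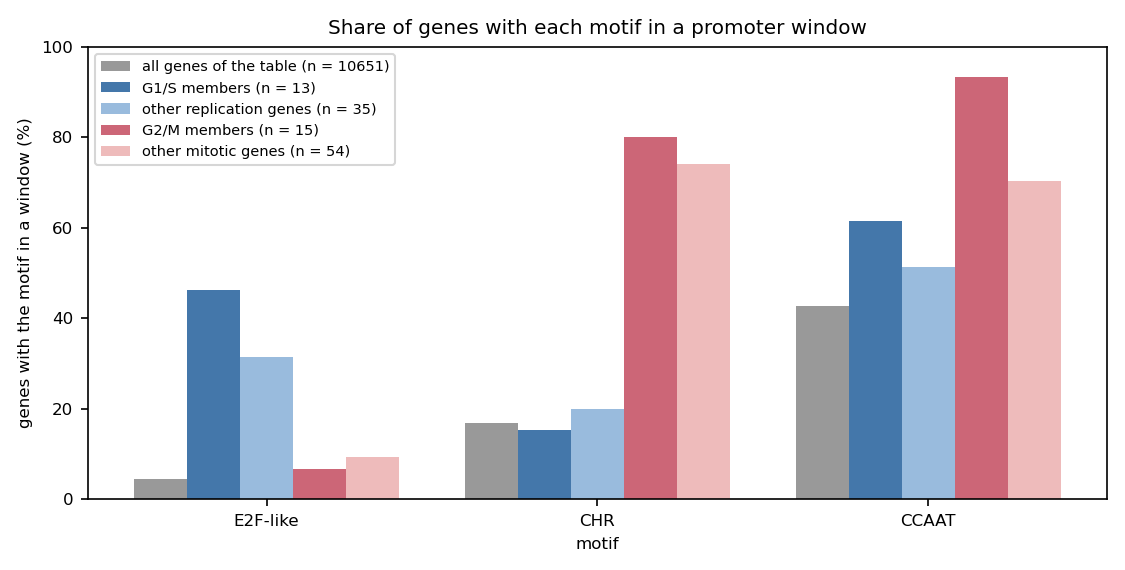
Share of genes, in percent, with an E2F-like, CHR or CCAAT match on either strand of a RefSeq promoter window, with 1 bar per gene set and the number of genes with a window in the key. E2F-like matches are most frequent in the G1/S members (46.2%) and CHR matches in the G2/M members (80.0%), against 4.50% and 16.8% of all genes of the table.

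Library totals lay between 15483409 and 17511937 counts. Control 4 stood apart by skeletal muscle transcripts: 14 muscle genes of a list of 16 summed to 1073 CPM (counts scaled to a fixed library size) there and to 9.97 to 121 CPM in the other tumours. As a check of the colon cancer label, 5 of 12 epithelial markers were in the table, with the intestinal keratin Krt20 at 44.0 to 157 CPM and the simple-epithelium keratins Krt18 at 5.76 to 20.2 CPM and Krt8 at 0.121 to 14.03 CPM, and with the cadherins Cdh1 at 0.569 to 3.32 CPM and Cdh17 at 0.575 to 2.15 CPM; Epcam, Krt7, Krt19, Cldn4, Cldn7, Cdx2 and Vil1 are not analysed here. Cell cycle transcripts were well covered in every tumour: the lowest count of any member was 310 reads, for Cdc6 in propranolol 3.

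Per unit of gene length, the replication clamp Pcna was the most abundant G1/S member, with a mean of 159 FPKM (fragments scaled by gene length and library size, computed by the authors) and a range of 130 to 185 FPKM over the 8 tumours. Rrm2 followed at 69.5 FPKM, then Mcm7 at 60.1, Mcm6 at 55.1 and Mcm3 at 54.5 FPKM, and these 4 overlapped over the tumours. The licensing factor gene Cdc6 was the lowest at 5.81 FPKM, with a range of 3.53 to 8.73 FPKM. Among the G2/M genes, Cdc20, the activator of the anaphase-promoting complex, was the highest at 89.2 FPKM (72.7 to 126 FPKM), followed by its partner enzyme Ube2c at 81.0 FPKM (65.2 to 104 FPKM), whose range overlapped that of Cdc20. The kinetochore gene Cenpf was the lowest at 13.8 FPKM (12.6 to 15.2 FPKM). Summed FPKM of the 16 G1/S genes was between 0.762 and 0.857 of that of the 20 G2/M genes in all 8 tumours, so the balance of the classes moved little from tumour to tumour while their joint level moved more.

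The comparison of propranolol with control asks whether cycling transcripts differ between treated and untreated tumours, in a study whose title speaks of tumour growth and T cell exhaustion. Most members had a somewhat lower average in propranolol tumours, and none passed the test. Of the 16 G1/S genes 15 had a lower fitted level, with a median log2 fold change of -0.18, and of the 20 G2/M genes 18 did, with a median of -0.14. Among all tested genes 50.6% were lower and the median was -0.0022; among the 6863 tested genes with a mean level in the range of the members, 30.4 to 584 CPM, 56.9% were lower and the median was -0.019. The members vary together from tumour to tumour, so these counts are not separate observations. With edgeR's quasi-likelihood test 0 of 36 members passed an adjusted p of 0.05, as did 0 of all tested genes (0%), and the adjusted p was 0.999 for every member. At an unadjusted p under 0.05 the same test gave 0 members, against 1.95% of all genes in either direction and 0.714% lower. DESeq2 and limma-voom each gave 1 member of 36, Rrm2. Over all genes DESeq2, run without the filter, put 337 of the 14133 genes under that p, and limma-voom 246 of 14006.

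No member had groups that did not overlap, against 0.914% of all genes that were lower without overlap. In 10 of 36 members 3 propranolol tumours lay below every control tumour, against 6.56% of all tested genes with 3 or more of them there. The median standard error was 0.14 for G1/S and 0.13 for G2/M log2 fold changes, and the 95% intervals of all 36 members lay within a 2-fold change in either direction. So did those of 6539 of the 6863 tested genes in the members' range of CPM. Among the members the widest reach was that of Ccne1, down to -0.75, and the highest upper bound that of Mki67, 0.30. The count of lower genes depended on control 4: without it 13 of 16 G1/S and 14 of 20 G2/M genes were lower, with medians of -0.077 and -0.058. Without propranolol 2 the medians were -0.24 and -0.24, and 8 members were lower at an unadjusted p under 0.05, against 1.34% of the genes tested in that fit; without propranolol 3 the G1/S median was -0.11.

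**Figure D2:**
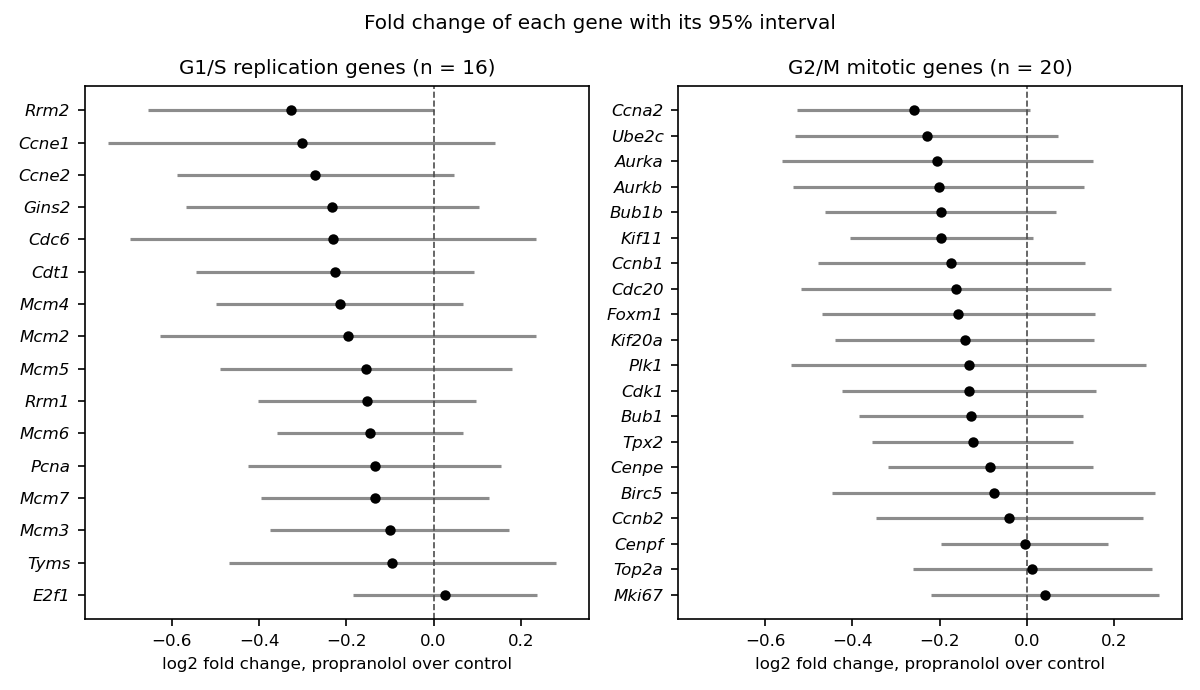
Log2 fold change of propranolol over control for each of the 16 G1/S genes (left) and 20 G2/M genes (right), with points for the edgeR estimate, bars for its 95% interval and a dashed line at no change. Points run from -0.33 for Rrm2 to 0.04 for Mki67 and every interval crosses the dashed line.

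The MCM helicase is a ring of 6 related subunits that unwinds DNA ahead of the polymerases. All 6 genes had a lower fitted level, with log2 fold changes from -0.22 for Mcm4 to -0.10 for Mcm3, and 0 passed. Mcm4 (ENSMUSG00000022673, GRCm39 chromosome 16 from 15441761 to 15455264) stood at 157, 159, 151 and 193 CPM in control 1 to 4 and at 134, 165, 118 and 151 CPM in propranolol 1 to 4. Control 4 was the highest and propranolol 3 the lowest, and propranolol 2 lay above 3 of the 4 controls, so the groups overlap. The log2 fold change was -0.22 (SE 0.13, edgeR unadjusted p = 0.121, adjusted p = 0.999). The subunits did not keep step in every tumour. Mcm2 stood at 173, 191, 175 and 255 CPM in control and at 176, 222, 175 and 120 CPM in propranolol tumours. Propranolol 4 was the lowest and control 4 the highest of the 8, and the other 6 lay between 173 and 222 CPM. In propranolol 4 the value was 0.71 below the control mean on the log2 scale, the lowest of any G1/S gene in that tumour, while Mcm3 there, at 214 CPM, was level with its control mean of 212 CPM. This pair was chosen after the values were seen.

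Cdc6 and Cdt1 load the helicase onto origins, and Gins2 encodes a subunit of the GINS complex that helps to activate it. Their log2 fold changes were close together, -0.23 for Cdc6, -0.23 for Cdt1 and -0.23 for Gins2, with 0 of 3 past the test. Cdt1 (ENSMUSG00000006585, GRCm39 chromosome 8 from 123294754 to 123300293) stood at 109, 102, 108 and 153 CPM in control and at 96.1, 118, 92.4 and 97.8 CPM in propranolol tumours. Apart from control 4, which was far above the rest, and propranolol 2, the controls were 102 CPM or more and the treated tumours 97.8 CPM or less. The fitted difference had a standard error of 0.14 (edgeR unadjusted p = 0.144, adjusted p = 0.999). Cdc6, the lowest-level G1/S gene per length, stood at 29.7, 27.0, 29.1 and 45.4 CPM in control and at 30.5, 32.3, 19.1 and 29.9 CPM in propranolol tumours. Only propranolol 3 fell outside the control range, and the lower average rested on that tumour and on the high control 4: the log2 fold change was -0.033 without control 4 and -0.086 without propranolol 3. Gins2 overlaps the oppositely oriented gene Gse1 by the deposited coordinates, as Mcm7, Kif20a, Plk1 and Cdc20 overlap other genes, and the sources used here do not say whether counting used strand, so reads of such pairs may be mixed.

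Rrm1 and Rrm2 encode the large and the small subunit of ribonucleotide reductase, which makes the deoxynucleotides, Tyms encodes thymidylate synthase and Pcna the sliding clamp. Rrm2 (ENSMUSG00000020649, GRCm39 chromosome 12 from 24758240 to 24764145) stood at 213, 184, 207 and 254 CPM in control and at 165, 217, 156 and 146 CPM in propranolol tumours. Of the treated tumours 3 lay below every control, and propranolol 2 lay above all controls but control 4. The log2 fold change of -0.33 (SE 0.15), a level 20.3% lower, was the largest in size among the members and had the smallest p (edgeR unadjusted p = 0.0504, adjusted p = 0.999). It kept its sign in each of the fits that left out 1 tumour, with values from -0.46 without propranolol 2 to -0.24 without control 4. Its partner Rrm1 had -0.15 (SE 0.11), with 253 to 308 CPM in control and 221 to 279 CPM in propranolol tumours. Pcna stood at 394, 351, 410 and 443 CPM in control and at 304, 403, 324 and 424 CPM in propranolol tumours. Propranolol 1 and 3 were below every control and propranolol 2 and 4 within the control range, and the log2 fold change was -0.14 (SE 0.13). Tyms differed by -0.094 (SE 0.17). Pcna and Tyms have annotated pseudogenes. The sources used here do not say how reads shared with such copies were handled, so their levels are uncertain to that extent.

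Ccne1 and Ccne2 encode the E-type cyclins that drive the entry into S phase, and E2f1 an E2F factor that activates the G1/S genes. Ccne2 stood at 33.8, 34.6, 38.0 and 31.3 CPM in control and at 23.2, 28.1, 26.3 and 36.5 CPM in propranolol tumours. It was the only G1/S gene at or under its own control mean in control 4, and propranolol 4 was the treated tumour within the control range. The log2 fold change was -0.27 (SE 0.14, edgeR unadjusted p = 0.0872, adjusted p = 0.999). Ccne2 overlaps the opposite-strand gene Ints8 over 5622 bases. Ccne1 behaved differently over the tumours, with 33.1, 29.2, 36.2 and 55.0 CPM in control and 30.0, 33.2, 25.2 and 36.1 CPM in propranolol tumours. Control 4 was well above the other 7 tumours, and without it the log2 fold change moved from -0.30 (SE 0.20) to -0.078. E2f1 (ENSMUSG00000027490, GRCm39 chromosome 2 from 154401327 to 154411812) stood at 76.6, 80.3, 94.5 and 90.3 CPM in control and at 81.8, 83.4, 89.7 and 92.9 CPM in propranolol tumours. It was the only G1/S member with a higher fitted level, by 0.026 (SE 0.094, 95% interval -0.18 to 0.24), and neither group stood apart.

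Cdk1 is the kinase of mitotic entry, cyclin A2 (Ccna2) acts from S phase to early mitosis, and the B-type cyclins (Ccnb1, Ccnb2) drive mitosis. Ccna2 (ENSMUSG00000027715, GRCm39 chromosome 3 from 36619014 to 36626299) stood at 208, 174, 180 and 227 CPM in control and at 153, 190.2, 149 and 168 CPM in propranolol tumours. Again 3 treated tumours lay below every control and propranolol 2 lay among the controls. Its log2 fold change of -0.26 (SE 0.12) was the largest in size of the G2/M genes and had their smallest p (edgeR unadjusted p = 0.0562, adjusted p = 0.999). Without control 4 it was -0.18. Ccna2 overlaps the opposite-strand gene Exosc9 over 863 bases. Ccnb1 differed by -0.17 (SE 0.14) and Cdk1 by -0.13 (SE 0.13). Ccnb2 was near equal, with 59.8 to 93.3 CPM in control and 65.0 to 77.9 CPM in propranolol tumours (-0.040, SE 0.14), and its sign turned without control 4 (0.098). Ccnb1 and Ccnb2 have annotated pseudogenes, with the same uncertainty as for Pcna.

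Plk1, Aurka and Aurkb encode kinases of centrosomes, spindle and cytokinesis. Birc5 encodes survivin, a partner of Aurora B in the chromosomal passenger complex, and Foxm1 the transcription factor of the mitotic programme. All 5 had a lower fitted level, from -0.21 for Aurka (SE 0.16) to -0.076 for Birc5 (SE 0.17), and 0 passed. Aurkb (ENSMUSG00000020897, GRCm39 chromosome 11 from 68936473 to 68942490) stood at 135, 109, 111 and 148 CPM in control and at 109, 138, 98.0 and 92.4 CPM in propranolol tumours. Propranolol 1, 3 and 4 were below every control, propranolol 1 by under 1 CPM, and propranolol 2 was the second highest of all 8, and the log2 fold change was -0.20 (SE 0.15, edgeR unadjusted p = 0.206, adjusted p = 0.999). Foxm1 stood at 266, 289, 294 and 329.8 CPM in control and at 242, 328, 279 and 210.0 CPM in propranolol tumours. Propranolol 4 was the lowest of all 8 tumours and propranolol 2 second only to control 4. Birc5 stood at 110.3, 85.6, 92.6 and 128 CPM in control and at 85.5, 102, 82.0 and 125 CPM in propranolol tumours. Relative to the control mean, propranolol 4 was 0.49 lower for Foxm1 and 0.28 higher for Birc5 on the log2 scale, the lowest and the highest of the 20 G2/M genes in that tumour. This comparison was chosen after the values were seen. Plk1 differed by -0.13 (SE 0.18) and turned to 0.057 without control 4, where it reached 131 CPM against 72.1 to 104 CPM elsewhere.

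Bub1 and Bub1b encode proteins of the spindle assembly checkpoint, which holds anaphase until chromosomes are attached. Cdc20 and Ube2c act with the anaphase-promoting complex that ends mitosis. Ube2c (ENSMUSG00000001403, GRCm39 chromosome 2 from 164611818 to 164620742) stood at 247, 199, 194 and 270 CPM in control and at 174, 208, 175 and 218 CPM in propranolol tumours. Propranolol 1 and 3 lay below every control, and control 1 and 4 above every treated tumour. The log2 fold change was -0.23 (SE 0.13, edgeR unadjusted p = 0.120, adjusted p = 0.999). Cdc20, the highest G2/M gene per length, stood at 171, 157, 140.3 and 235 CPM in control and at 153, 182, 143 and 151 CPM in propranolol tumours. Its treated values all lay within the control range, and the log2 fold change of -0.16 (SE 0.16) became 0.0082 without control 4. Bub1b differed by -0.20 (SE 0.12), with 3 propranolol tumours below every control, and Bub1 by -0.13 (SE 0.11), with propranolol 1 alone below the controls at 79.1 CPM against 102 CPM or more in the other 7.

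Kif11 and Kif20a encode motors of the spindle and of cytokinesis, Tpx2 a spindle assembly factor that activates Aurora A, and Cenpe and Cenpf kinetochore proteins. Top2a encodes the topoisomerase that untangles sister chromatids and Mki67 the proliferation antigen Ki-67, which coats mitotic chromosomes. Kif11 (ENSMUSG00000012443, GRCm39 chromosome 19 from 37364851 to 37410307) varied little among the controls, with 137, 132, 139 and 146 CPM in control and 113, 139, 114 and 119 CPM in propranolol tumours. Propranolol 1, 3 and 4 lay below every control and propranolol 2 above 3 of them. The log2 fold change was -0.20 (SE 0.094, edgeR unadjusted p = 0.0646, adjusted p = 0.999), and it stayed between -0.27 and -0.16 when any 1 tumour was left out. Kif20a differed by -0.14 (SE 0.13) and Tpx2 by -0.12 (SE 0.10).

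Mki67 and Top2a, both in common use as proliferation markers, had fitted levels slightly above control. Mki67 (ENSMUSG00000031004, GRCm39 chromosome 7 from 135291513 to 135318090) stood at 442, 491, 523 and 522 CPM in control and at 479, 617, 491 and 450 CPM in propranolol tumours. Propranolol 2 was above every control, the other treated tumours were within the control range, and the log2 fold change was 0.042 (SE 0.12, 95% interval -0.22 to 0.30). Top2a stood at 561, 543, 553 and 669 CPM in control and at 546, 637, 491 and 673 CPM in propranolol tumours. The treated tumours span the control range, with propranolol 3 below and propranolol 4 above every control, and the log2 fold change was 0.013 (SE 0.12, 95% interval -0.26 to 0.29). Cenpf, the lowest G2/M gene per length, stood at 216, 219, 214 and 206 CPM in control and at 200.1, 233, 200.5 and 219 CPM in propranolol tumours. It had the smallest difference of all members, -0.0049 (SE 0.086), with a control SD of 5.68 CPM on a mean of 214 CPM (n = 4). Whether Mki67, Top2a and E2f1 differ from the other members in their response was not tested.

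**Figure D3:**
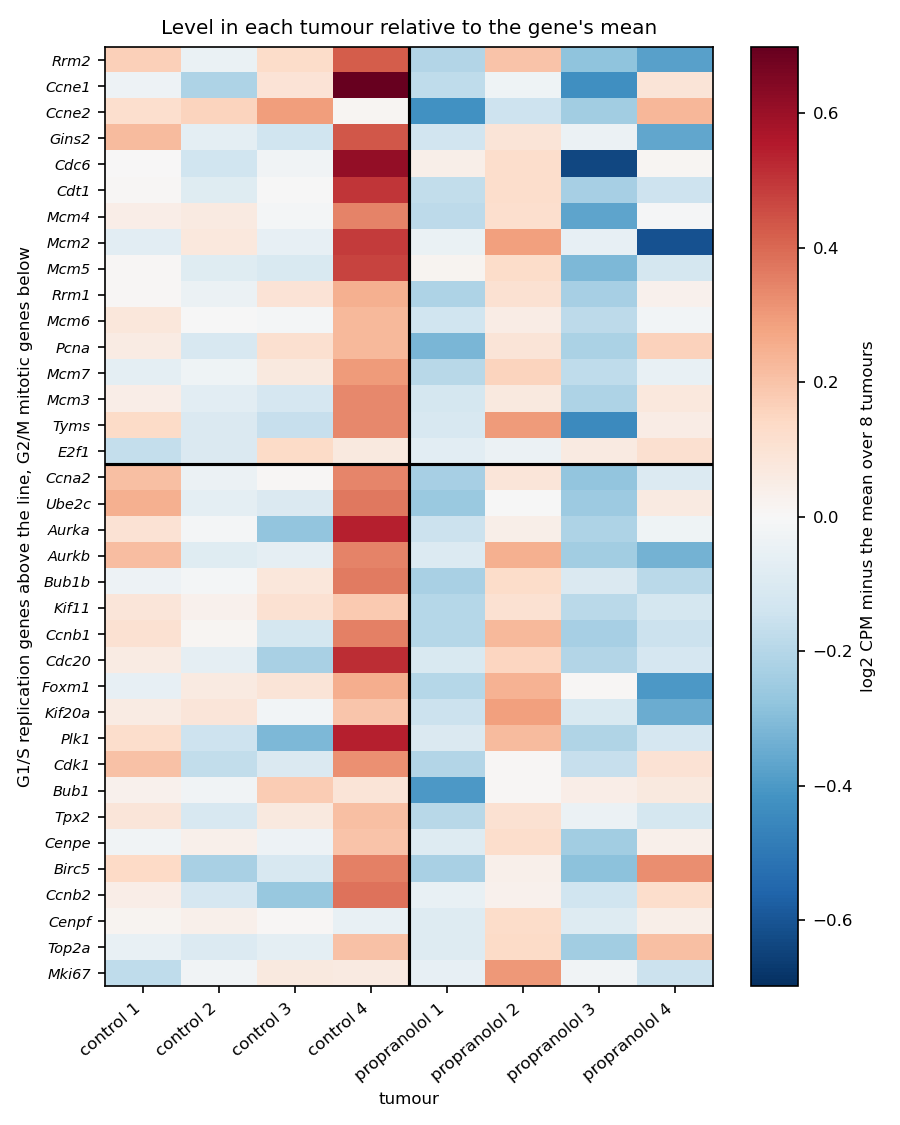
Level of each member in each tumour as log2 CPM minus the mean of the gene over the 8 tumours (red above, blue below), with G1/S genes above the horizontal line, G2/M genes below it, and control tumours left of the vertical line. Control 4 is the highest tumour for 29 of the 36 genes, and propranolol 2 is above the mean for 13 of 16 G1/S and 19 of 20 G2/M genes.

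The tumours differed from each other across most members at once. Control 4 was the highest tumour for 14 of 16 G1/S and 15 of 20 G2/M genes. The lowest tumour was propranolol 3 for 9 G1/S and 5 G2/M genes and propranolol 1 for 3 and 7. A class score was taken as the average deviation, in log2 CPM, of a class's genes from their 8-tumour means. It gave for the G1/S genes 0.035, -0.050, 0.018 and 0.36 in control 1 to 4 and -0.15, 0.10, -0.25 and -0.058 in propranolol 1 to 4. For the G2/M genes it gave 0.069, -0.047, -0.055 and 0.29 in control and -0.17, 0.13, -0.16 and -0.060 in propranolol tumours. In both classes propranolol 1, 3 and 4 had lower scores than every control, though propranolol 4 was only just under the lowest control, and propranolol 2 had a higher score than 3 of the 4 controls. The group means differed by -0.18 for G1/S (SD 0.18 in control and 0.15 in propranolol, n = 4 each) and by -0.13 for G2/M (SD 0.16 and 0.14), differences of about the spread within a group.

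Tumours with the same number in both groups deviated together from their group means over all genes, though no label makes them pairs. By chi-square per degree of freedom between libraries, the match was partial. Control 2 and 3 were closest to the propranolol tumour of their own number (9.04 and 14.3). Control 1 and 4 were closer to propranolol 2 (16.1 and 29.2) than to their own number (32.1 and 56.3). The number pairs went different ways in the members. Propranolol 2 was higher than control 2 in 15 of 16 G1/S genes (1 lower) and in all 20 G2/M genes (0 lower), with median log2 differences of 0.19 and 0.18. In the other pairs propranolol was lower for most members: 12 of 16 and 19 of 20 in pair 1, 14 of 16 and 16 of 20 in pair 3, and 14 of 16 and 18 of 20 in pair 4. The medians there were -0.20 and -0.24, -0.27 and -0.11, and -0.35 and -0.32 for G1/S and G2/M. Over all tested genes 47.9% to 50.8% were lower within the pairs. Adding the number as a block to the edgeR fit left 0 members past the threshold. The blocked fit put 0 members and 717 genes under an unadjusted p of 0.05, against 273 genes without the block.

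**Figure D4:**
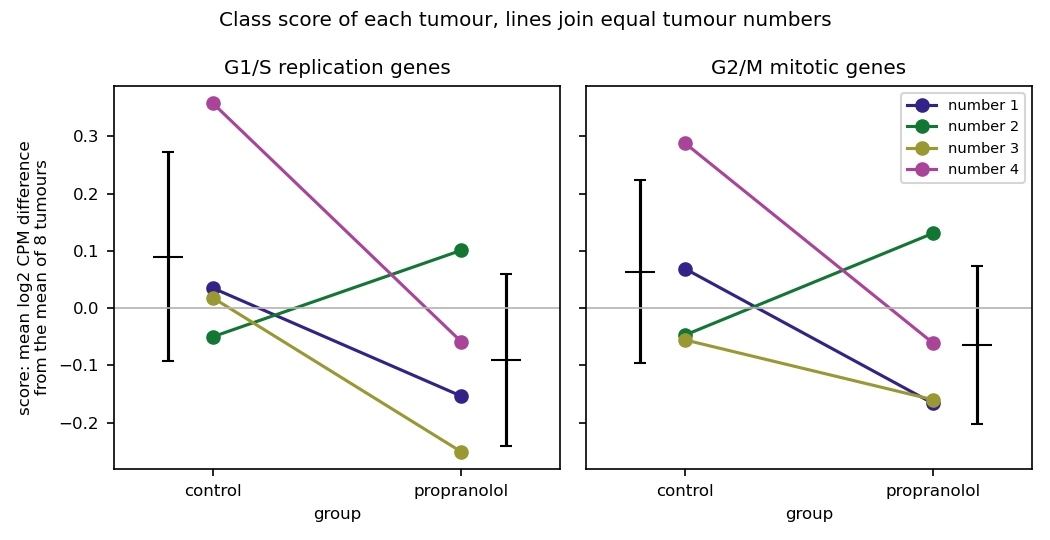
Class score of each tumour (mean log2 CPM difference from the mean of the 8 tumours) for G1/S genes (left) and G2/M genes (right), with lines joining control and propranolol tumours of the same number and black bars for the group mean and SD. The lines of numbers 1, 3 and 4 go down and that of number 2 goes up in both classes.

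Several other transcript groups also differed between these tumours, not all in step with the class scores, and their part in the differences was not tested. The 16 T cell markers, all in the table, summed to 24.4 to 77.4 CPM in control and to 241, 73.4, 12.4 and 296 CPM in propranolol 1 to 4, with no marker at 0 in any tumour. Propranolol 1 and 3, which had the lowest class scores, thus had a high and the lowest T cell sum. The 12 macrophage markers, again all in the table and none at 0, summed to 2332 to 3442 CPM in control and to 4667, 3079, 2161 and 4237 CPM in propranolol tumours. The 10 hypoxia genes were lowest in control 4 (425 CPM), where the class scores were highest. They were highest in propranolol 3 (2675 CPM), where the G1/S score was lowest. Propranolol 1 had the lowest G2/M score and the next-lowest G1/S score, with a hypoxia sum of only 596 CPM. The other tumours had 587 to 1656 CPM, and control 3, second at 1656 CPM, had a G1/S score near the middle. The muscle sum of 1073 CPM in control 4 stood beside the highest scores; of its 14 genes in the table, Acta1, Ckm, Myh1, Myh2, Myh4, Myl1 and Pvalb had 0 counts in at least 1 tumour. Erythroid genes, 5 of 9 in the table, also summed highest in control 4, at 194 CPM against 25.4 to 87.6 CPM elsewhere. Mitochondrially encoded genes, 13 in the table, summed to 17725 to 23680 CPM in control and 13138 to 20871 CPM in propranolol tumours. The 11 fibroblast genes in the table summed to 3327 to 4837 CPM in control and 3508 to 4382 CPM in propranolol tumours, and the 8 endothelial genes to 156 to 196 CPM and 113 to 206 CPM.

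**Figure D5:**
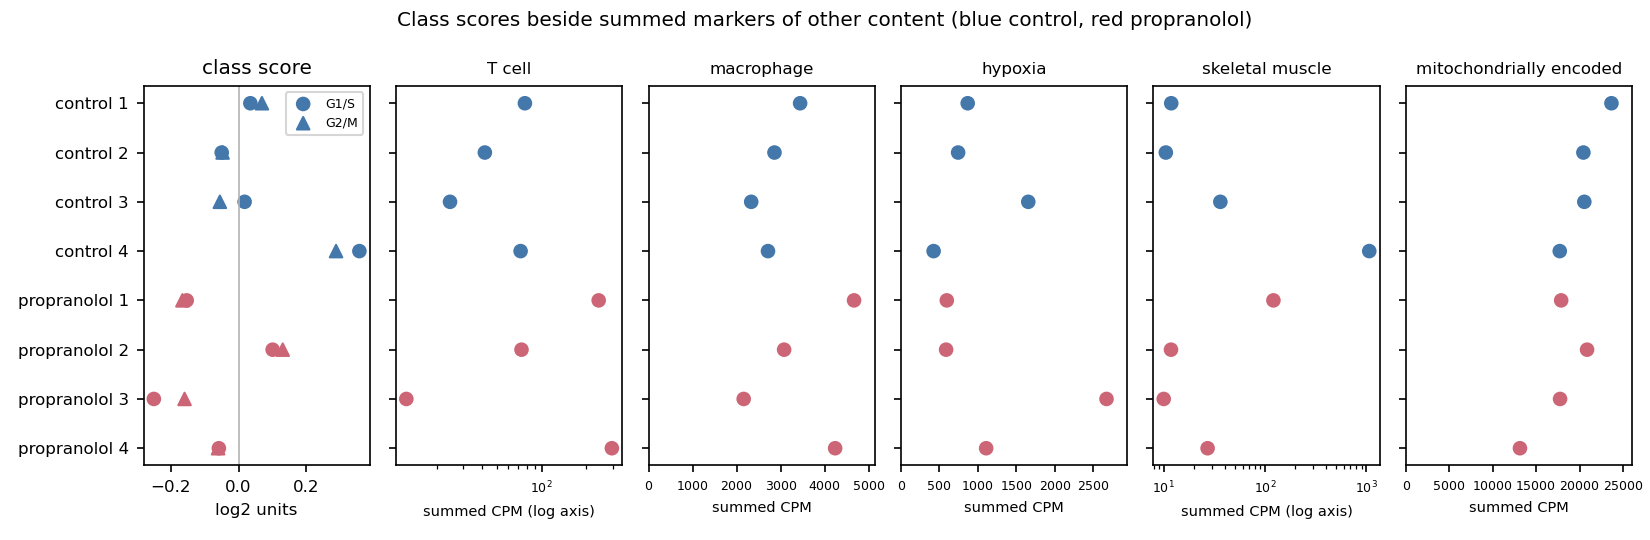
Class scores of each tumour (left panel, circles G1/S and triangles G2/M) beside summed CPM of T cell, macrophage, hypoxia, skeletal muscle and mitochondrially encoded genes, with control tumours in blue, propranolol tumours in red, and log axes where labelled. The highest scores, in control 4, stand beside the highest muscle sum (1073 CPM) and the lowest hypoxia sum (425 CPM). Propranolol 1, with the lowest G2/M score, has a hypoxia sum of 596 CPM.

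By an SD that joins both groups, the members varied somewhat more within a group than genes of like level. For the G2/M genes this did not hold among the propranolol tumours alone. The median within-group SD on the log2 scale was 0.21 for G1/S and 0.20 for G2/M genes, 0.17 for the 6863 genes in the same range of CPM and 1.65 for the T cell markers. Between members this SD ran from 0.080 to 0.35. The median SD of CPM as a percentage of the mean was 14.2% for G1/S and 12.9% for G2/M genes in control tumours, against 10.5% for genes of like level. In propranolol tumours it was 13.7% and 11.6%, against 11.9%.

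Other genes of the cell cycle were lower in most cases too. Of 44 further replication genes 39 had a lower fitted level (median log2 fold change -0.10), of 65 further mitotic genes 62 did (median -0.11), and 0 of either list passed edgeR's test. At an unadjusted p under 0.05 in edgeR's test each list had 1 gene, 1 of 44 and 1 of 65. Among all tested genes 1.95% were under that p in either direction and 0.714% lower. Both genes were lower: Orc2, a subunit of the origin recognition complex (-0.30, SE 0.10), and Ska3, a kinetochore-microtubule protein (-0.27, SE 0.10). Rfc4 of the clamp loader had -0.20 (SE 0.12) and Wdhd1, a replisome adaptor, -0.22 (SE 0.13). Ect2, which starts cytokinesis, had -0.19 (SE 0.10) and Sgo1, which protects centromeric cohesion, -0.14 (SE 0.085). Genes annotated in the deposited table to cell division that are in none of these lists numbered 238, of which 148 were lower (62.2%, median -0.033). The 60 such genes annotated to DNA replication had 40 lower (66.7%, median -0.038). These shares are not far from the 56.9% lower (median -0.019) among tested genes in the members' range of CPM. Among all tested genes 50.6% were lower (median -0.0022).

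Upstream in G1, of 12 G1 cyclin, kinase and related genes 10 were lower (median -0.13, 0 passed), with the phosphatase gene Cdc25a at -0.28 (SE 0.15), the ubiquitin ligase gene Skp2 at -0.20 (SE 0.11) and Ccnd1, which encodes cyclin D1, at -0.20 (SE 0.14). Of 16 tested pocket protein, E2F and DREAM genes 13 were lower (median -0.077, 0 passed), with the E2F partner gene Tfdp1 at -0.17 (SE 0.090), E2f4 at -0.21 (SE 0.12) and E2f5 at -0.20 (SE 0.13). Of 5 tested CDK inhibitor genes, 4 had a lower fitted level (median -0.037, 0 passed). Cdkn1a, which encodes p21, had -0.21 (SE 0.20), Cdkn1b, which encodes p27, 0.094 (SE 0.11) and the CDK phosphatase gene Cdkn3 -0.066 (SE 0.17). Cdkn1c, Cdkn2a and Cdkn2b are not analysed here.

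The authors' deposited table gave a negative log2 fold change to 33 members and marked 0 as up or down. In the authors' deposited table Rrm2 was the 1 member with an unadjusted p under 0.05 (log2 fold change -0.32, p = 0.0426, adjusted p = 0.9997, matching the DESeq2 Wald test run here). That DESeq2 test put 337 of the 14133 genes under the same p.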

How the data were processed

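Bulk RNA sequencing of 8 CT26 tumours, 4 control and 4 propranolol, gave a table of 14133 genes. The authors deposited raw read counts and FPKM for each tumour. They also deposited p-values, raw and adjusted, with log2 fold changes, per the file headers. Build GRCm39 and the programs edgeR 3.24.3, DESeq2 1.22.1, featureCounts 1.6.2, StringTie 1.3.4d, HISAT2 2.1.0 and fastp 0.19.3 are listed in the submitters' processing notes, with no role for each. Every gene of the table exceeds 1 CPM in at least 2 libraries.

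In R 4.3.3 the counts were tested by the quasi-likelihood method of edgeR 4.0.16 (TMM scaling, filterByExpr, robust fit) over all 14006 genes left of 14133, with Benjamini-Hochberg adjustment at 0.05. CPM use TMM-scaled library sizes. The step was tested on simulated data. No library was a copy of another: the smallest chi-square per degree of freedom over genes was 12.8 within a group and 9.04 between groups. Same-numbered control and propranolol tumours deviated together from their group means (correlations 0.190, 0.311, 0.508 and 0.277 for numbers 1 to 4). Only 4 of the 8 tumours correlated best with their own number in the other group. This is a pattern of the data and not of the labels. The main fit therefore treats the tumours as unpaired, and a fit with the number as a block is given beside it. Alternatives were DESeq2 1.42.0, limma-voom (limma 3.58.1), RLE or no scaling, no filter, the block, and each tumour left out.

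Members and lists were chosen with earlier results of these data known. Values in every tumour are given for the member with the smallest p of each of 8 roles, members against the direction of their class, and the highest and lowest by FPKM of each class. Outside these rules they are given for Mcm2, Foxm1 and Birc5, named as chosen later, and for Ccne1. Of other cell cycle lists the 3 genes with the smallest p are given. Gene sets by the deposited annotation were added later. Only 2.09% of gene starts in the deposited table equal those of the GRCm38 annotation at hand, so positions of genes (GRCm39) and promoters (GRCm38.p6, RefSeq) were kept apart.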

Additional observations from a re-analysis of the deposited data

Results flagged for a closer look

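Of 76 groups of 4 values (36 genes and 2 class scores in each group), 5 held a value whose gap to its nearest neighbour, as a share of the group's range, was above Dixon's 95% critical value; chance alone gives about 1 in 20 groups. In the control group these were Cdc6 at 45.4 CPM, Cdt1 at 153 CPM and Top2a at 669 CPM, all in control 4 and all high. In the propranolol group Ccnb1 was high in propranolol 2 at 179 CPM and Bub1 low in propranolol 1 at 79.1 CPM. These genes move together, so the 5 values are not separate events.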

How the results depend on the processing

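In every alternative 0 members and 0 genes passed an adjusted p of 0.05. Across scalings, the filter, DESeq2, limma-voom and the replicate block, 15 G1/S and 18 G2/M genes stayed lower in number, with medians of -0.18 to -0.17 and -0.14, and no member changed sign. Genes at an unadjusted p under 0.05 numbered 273, 337 with DESeq2, 246 with limma-voom, 717 with the replicate block and 134 to 1017 with 1 tumour left out; members at that level numbered 0, 1 with DESeq2, 1 with limma-voom, 0 with the block and 0 to 8 with 1 tumour left out (8 without propranolol 2). The block changed no other call. With 1 tumour left out 13 to 16 G1/S and 14 to 20 G2/M genes were lower, with medians of -0.24 to -0.077 and -0.24 to -0.058, and the log2 fold changes that turned ranged from -0.15 to 0.0039 for Mcm3, -0.22 to 0.022 for Tyms, -0.017 to 0.084 for E2f1, -0.12 to 0.098 for Ccnb2, -0.24 to 0.057 for Plk1, -0.21 to 0.039 for Birc5, -0.25 to 0.0082 for Cdc20, -0.050 to 0.024 for Cenpf, -0.059 to 0.089 for Top2a and -0.064 to 0.097 for Mki67. The cause was not tested. With 4 tumours in each group and standard errors of 0.086 to 0.21, differences of the size seen here gave no single-gene call among the members. The power to detect differences of this size was not tested.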
